A study of Saccharomyces cerevisiae with 72 samples.

Results

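Phospholipid synthesis and its control by inositol were followed through 10 genes of the budding yeast Saccharomyces cerevisiae: INO1, CDS1, PIS1, CHO1, PSD1, CHO2, OPI3, INO2, INO4 and OPI1. They were picked by name from the annotation of an Affymetrix yeast array, where each had a probe set of its own, and stand among 5409 named genes and 6869 probe sets that passed a filter on low signal. Earlier results of these data were known when these genes and the gene lists below were chosen. All 10 passed that filter. It was known from these arrays when the genes were picked that CDS1 signal is lower with 3-AT, so every CDS1 value with 3-AT, and every wild-type comparison of 3-AT with no treatment, is a description here and carries no test. The 6 genotypes were gcn2 (strain KY654), gcn4 (KY656), gln3 (KY640), gcn2 gln3 (KY641), gcn4 gln3 (KY643) and wild type (KY652), all mutants being deletions. Each genotype was treated for 1 h with 10 mM 3-AT (3-amino-1,2,4-triazole) or 200 nM rapamycin, or was left untreated, with 4 arrays per group, 18 groups and 72 arrays in all. Every culture grew without histidine, with 2% dextrose as the sugar and 0.5% ammonium sulfate as the nitrogen source. The labels do not say that the 4 arrays of a group hold RNA of separate cultures; p-values measure the spread between arrays, and this may be technical. In bulk RNA of this kind, fewer cells and less RNA per cell cannot be told apart.

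In yeast, Cds1 turns phosphatidic acid into CDP-diacylglycerol, which Pis1 joins to inositol to make phosphatidylinositol and Cho1 joins to serine to make phosphatidylserine. Psd1 decarboxylates phosphatidylserine in mitochondria to phosphatidylethanolamine, and the methyltransferases Cho2 and Opi3 carry that lipid on to phosphatidylcholine. Ino1 makes inositol phosphate from glucose phosphate and is the classic reporter of the system: Ino2 and Ino4 bind inositol-responsive promoter elements as a pair and activate it, while Opi1 represses it when inositol is plentiful and phosphatidic acid is low. 3-AT inhibits histidine synthesis, and the kinase Gcn2 answers amino acid shortage by raising translation of the activator Gcn4. Rapamycin inhibits the Tor kinase complex, after which the GATA factor Gln3 enters the nucleus and activates genes for the use of poor nitrogen sources. The series set out to learn how both pathways shape the transcriptome under amino acid shortage and rapamycin.

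Signals are the deposited MAS5 signals, a linear brightness scaled to the same trimmed mean on every array, and a change is a difference of group means of log2 signal. GCN4 read 3.85 to 86.8 on the 24 arrays of strains without the gene, against 8079.9 to 23622 on the others, and GLN3 read 0.416 to 39.4 on 36 arrays without it, against 124 to 869.6. The GCN2 probe set read 74.9 to 226 in strains without GCN2, against 81.5 to 391 with it, and was above background on 22 of 24 arrays of the deletion strains. Those ranges overlap when the treatments are pooled; within a treatment, and over 69 arrays, they did not. On 3-AT it read 168 to 226 without the gene, against 227 to 391 with it. On rapamycin it read 88.5 to 141 without the gene, against 229 to 364 with it, and untreated 74.9 to 123 without the gene, against 201 to 256 with it. Untreated, it was lower than in wild type by 1.27 in gcn2 (adjusted p = 6.1e-10 over 69 arrays and 3.8e-05 over 72) and 1.31 in gcn2 gln3 (adjusted p = 1.6e-10 and 1.2e-05). On 3 arrays, gcn2 gln3 with 3-AT replicate 1, gcn2 gln3 with rapamycin replicate 1 and gcn4 gln3 with rapamycin replicate 2, the actin 3'/5' signal ratio was 229.5, 113 and 43.2. The other 69 arrays had a ratio of 1.31 to 5.03. Results are given over all 72 arrays and over the 69. All groups share 1 estimate of spread per gene, and its median over probe sets was 0.41 (residual SD of log2 signal) over 72 arrays and 0.28 over 69. For INO1 the standard error of a change was 0.51 over 72 arrays and 0.15 over 69, so calls over 72 arrays are fewer. A call is an adjusted p under 0.05 in limma, after Benjamini-Hochberg adjustment over 6869 probe sets within a comparison. Calls on the deposited scale are those of the fit with no further scaling and without the replicate number as a block. Changes are given with their standard error over 69 arrays unless another number is named. Adjusted p-values from limma are written in pairs, the value over 69 arrays before the stroke and that over 72 after it. As deposited, the median probe set was 0.09 to 0.20 higher (log2) with 3-AT than without it over the 6 genotypes, and 0.06 to 0.20 higher with rapamycin. Centring each array on its median moved these medians to between -0.21 and -0.17 with 3-AT and between -0.10 and 0.01 with rapamycin, so the direction of a small change rests on the scaling.

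With 3-AT most of the phospholipid genes read below their untreated levels in wild type, and over 69 arrays OPI3, PIS1, INO2 and CHO1 fell in at least 4 of the 5 mutants, while over 72 arrays few mutant calls were left. With rapamycin calls went in both directions, and their number depended on the fit. In wild type, 7 of 10 genes (INO1, CHO1, OPI3, CDS1, PSD1, PIS1 and INO2) read lower on all 4 arrays with 3-AT than on any untreated array and none read higher, where 18.6% of all probe sets read lower without overlap and 26.4% higher. The median wild-type change with 3-AT over the 10 genes was -0.73, against 0.09 over all probe sets. Both the count and the median include CDS1, whose fall was known when it was picked, and are a description with no test. Leaving CDS1 aside, 25 of 45 pairs of a gene and a mutant fell with 3-AT over 69 arrays and none rose, where 20.7% of all such pairs fell, 35.1% rose and 55.8% were called in either direction. Over all 72 arrays 4 of the 45 pairs fell and none rose, where 12.6% fell, 26.5% rose and 39.1% were called. The median change of the 45 pairs over 69 arrays was -0.30, against 0.17 over all probe sets. With rapamycin in wild type, OPI3, CHO2 and INO4 rose and CDS1 and PIS1 fell over 69 arrays, 5 of 10 genes where 54.8% of probe sets were called (33.0% higher and 21.8% lower). Over 72 arrays CHO2 and INO4 rose and none fell, 2 of 10 where 37.9% were called (22.2% higher and 15.7% lower). In the 5 mutants, 11 of 50 pairs rose and 3 fell with rapamycin over 69 arrays where 47.0% of all pairs were called (29.7% higher and 17.3% lower). Over 72 arrays 4 rose and 5 fell, where 33.1% were called (20.3% higher and 12.9% lower). The median over these 50 pairs was 0.10, against 0.15 over all probe sets. The split of rapamycin calls in the mutants depends on scaling: over 69 arrays it was 11 up and 11 down after median centring and 17 up and 8 down after quantile normalization, and over 72 arrays 1 up and 9 down after centring. The replicate number as a block gave 6 of 10 genes called in wild type and 24 of 50 pairs in the mutants over 69 arrays. Shares of all probe sets called in these other fits are not given here.

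**Figure D1:**
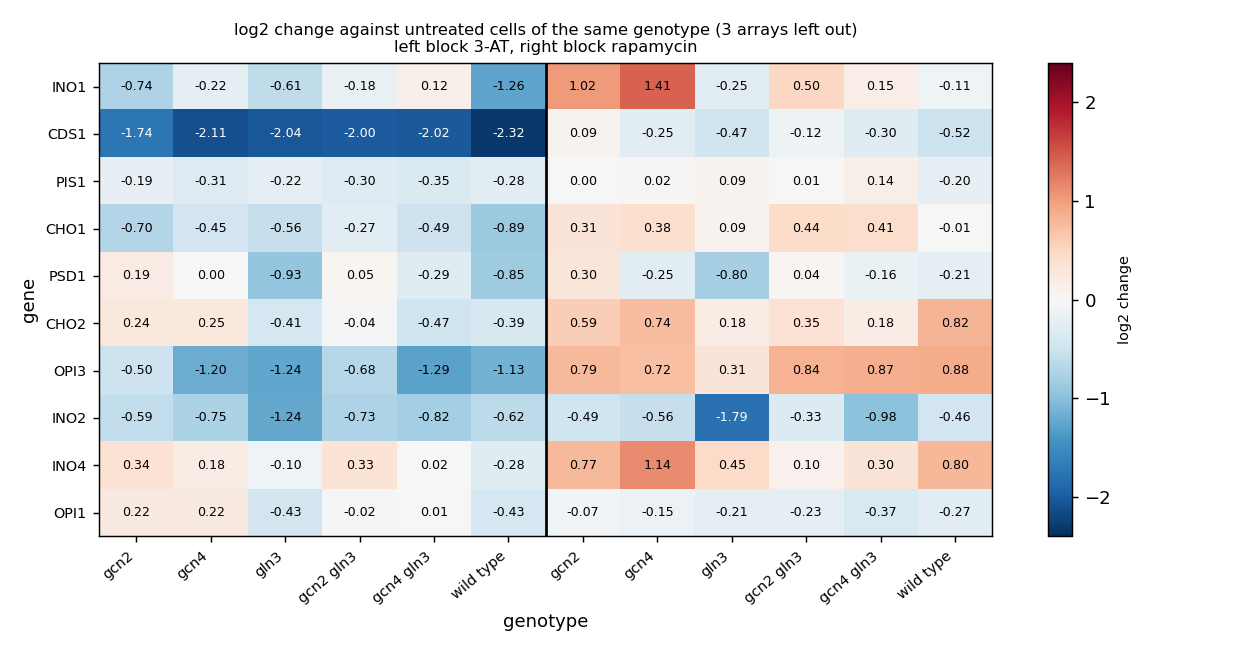
Log2 change of each gene (rows) in each genotype (columns) with 3-AT and with rapamycin against untreated arrays of the same genotype, over the 69 arrays, as coloured cells with the value printed in them. CDS1 has the most negative value with 3-AT in every genotype, between -2.32 in wild type and -1.74 in gcn2. The most positive value is that of INO1 in gcn4 with rapamycin, 1.41, and the most negative with rapamycin that of INO2 in gln3, -1.79.

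INO1, which encodes inositol phosphate synthase, had a 6.53-fold range between its lowest and highest group means, and its response to both drugs differed by genotype. With 3-AT, INO1 read 481, 530.4, 642 and 557 on the 4 wild-type arrays, against 1118, 1329, 1632 and 1236 untreated. The groups did not overlap, and the log2 change was -1.26 ± 0.15 (SE, over 69 arrays; a description). In gcn2 it read 905, 926, 1099 and 841 with 3-AT, against 1415, 1533, 1862 and 1497 untreated. All 4 treated arrays lay below the untreated ones, and INO1 fell by 0.74 ± 0.15 (adjusted p = 2.6e-05 / 0.26). In gln3 the values were 1029.8, 989, 1261 and 1089 with 3-AT, against 1506, 1676, 1828 and 1668 untreated. These did not overlap either, and INO1 fell by 0.61 ± 0.15 (adjusted p = 0.00045 / 0.39). In the other 3 mutants the treated and untreated ranges overlapped. The change was -0.22 ± 0.15 in gcn4 (95% interval -0.52 to 0.08), -0.18 ± 0.16 in gcn2 gln3 (-0.50 to 0.14) and 0.12 ± 0.15 in gcn4 gln3 (-0.18 to 0.42), none of them called on the deposited scale. INO1 was called lower over 69 arrays in gcn4 with median centring (-0.62, adjusted p = 5.1e-05) and quantile normalization (-0.39, adjusted p = 0.016), and in gcn2 gln3 with centring (-0.57, adjusted p = 0.00069). On 3-AT, every mutant array read higher than every wild-type array: the 5 mutants spanned 841 to 1359, against 481 to 642 in wild type.

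**Figure D2:**
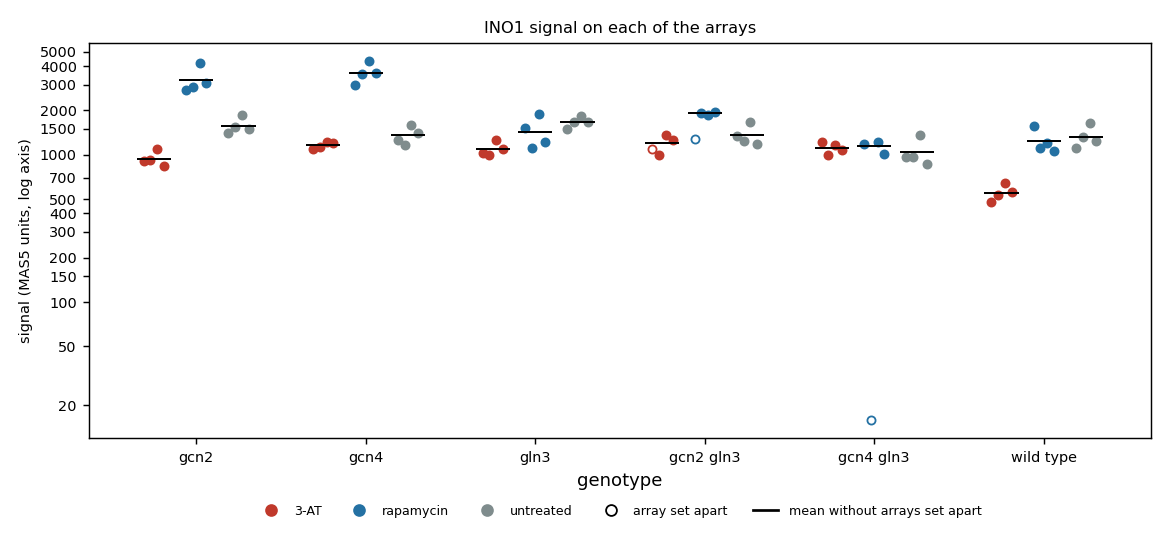
INO1 signal on every array (log axis), by genotype from left to right with wild type last and by treatment within a genotype (3-AT, rapamycin, untreated). Points are arrays, open circles the 3 arrays set apart and black lines means without them. Wild-type arrays with 3-AT, at 481 to 642, are the lowest group apart from the open circle at 15.8, and gcn2 (2755 to 4175) and gcn4 (2968 to 4315) arrays with rapamycin are the highest.

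The difference itself was tested as the mutant's INO1 response to 3-AT minus that of wild type, which shares the wild-type arrays across mutants. Those wild-type arrays were in view when the genes were picked. The p-values of such 3-AT differences, here and for the genes below, are therefore no independent evidence. It was 1.04 ± 0.21 in gcn4 (adjusted p = 0.00017 / 0.6), 1.08 ± 0.22 in gcn2 gln3 (adjusted p = 0.00021 / 0.55) and 1.38 ± 0.21 in gcn4 gln3 (adjusted p = 8.6e-07 / 0.38). The calls in those 3 mutants over 69 arrays were lost over 72. In gcn2 the difference was 0.52 ± 0.21 (interval 0.10 to 0.94, adjusted p = 0.13 / 1) and in gln3 0.64 ± 0.21 (interval 0.23 to 1.06, adjusted p = 0.15 / 1), not called. Both were called over 69 arrays with the replicate number as a block (adjusted p = 0.016 and 0.011). Over 72 arrays, limma called 0 of 45 differences between mutant and wild-type responses to 3-AT among the 10 genes (3.94% of all pairs called), 5 of them at an unadjusted p under 0.05. Over 69 arrays it called 6, all higher (5.16% of all pairs higher and 9.94% called). The other 3 of those 6 were CHO2 in gcn2 and gcn4 and OPI3 in gcn2.

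With rapamycin, INO1 in wild type read 1569, 1108, 1197 and 1055, against 1118, 1329, 1632 and 1236 untreated, overlapping ranges with a change of -0.11 ± 0.15 (interval -0.41 to 0.18). In gcn4 it read 2968, 3558, 4315 and 3601 with rapamycin, against 1267, 1166, 1586 and 1408 untreated. Every treated array exceeded every untreated one, and INO1 rose by 1.41 ± 0.15, a 2.66-fold change (adjusted p = 6.8e-12 / 0.027). The call over 72 arrays is lost without rapamycin replicate 3 or untreated replicate 1 or 2 (adjusted p = 0.068, 0.054 and 0.063). In gcn2 it read 2755, 2889, 4175 and 3079 with rapamycin, against 1415, 1533, 1862 and 1497 untreated, again without overlap, and rose by 1.02 ± 0.15 (adjusted p = 6.9e-08 / 0.13). In gcn2 gln3 the values were 1286 (an array set apart), 1914, 1866 and 1955 with rapamycin, against 1347, 1246, 1658 and 1190.4 untreated. Without the array set apart these did not overlap, and INO1 rose by 0.50 ± 0.16 (adjusted p = 0.0089 / 0.66). In gln3 the change was -0.25 ± 0.15 (interval -0.55 to 0.05), with overlapping ranges and no call on the deposited scale. Over 69 arrays that change was called with centring (-0.51, adjusted p = 0.0011) and with quantile normalization (-0.41, adjusted p = 0.015).

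In gcn4 gln3 the 4 arrays with rapamycin read 1187, 15.8 (an array set apart), 1224 and 1016, against 973, 968, 1361 and 862 untreated. The result there rests on 1 array: the change in INO1 was -1.38 ± 0.51 over 72 arrays (adjusted p = 0.027) and 0.15 ± 0.16 over 69 (adjusted p = 0.47). Leaving out that array alone gave 0.15 (adjusted p = 0.51), and leaving out untreated replicate 3 ended the call at 72 arrays (-1.24, adjusted p = 0.071). Set against the wild-type response, the INO1 response to rapamycin was higher by 1.52 ± 0.21 in gcn4 (adjusted p = 3.7e-07 / 0.69) and by 1.13 ± 0.21 in gcn2 (adjusted p = 0.00017 / 1). It was 0.62 ± 0.22 in gcn2 gln3 (interval 0.18 to 1.05, adjusted p = 0.073 / 0.99), -0.14 ± 0.21 in gln3 (interval -0.56 to 0.28) and 0.26 ± 0.22 in gcn4 gln3 (interval -0.17 to 0.70), without a call over 69 arrays on the deposited scale. The gcn2 gln3 difference was called over 69 arrays with centring (0.64, adjusted p = 0.026) and with quantile normalization (0.64, adjusted p = 0.044). Limma called 0 of 50 such differences among the 10 genes over 72 arrays (2.03% of all pairs called), 4 of them at an unadjusted p under 0.05, and 3 over 69 arrays (5.05% of all pairs called). Of those 3, INO1 in gcn2 and gcn4 was higher and INO2 in gln3 lower (2.42% of all pairs higher and 2.64% lower). With rapamycin the other 3 gcn4 gln3 arrays (1016 to 1224) lay below the gcn4 arrays (2968 to 4315). Likewise the other 3 gcn2 gln3 arrays (1866 to 1955) lay below the gcn2 arrays (2755 to 4175), and neither difference between double and single mutant was tested. In the order of the 18 INO1 group means, 3 of 17 neighbouring pairs did not overlap: gcn2 gln3 below gcn2 with rapamycin, gcn2 gln3 with rapamycin above untreated gln3, and gcn2 above wild type with 3-AT.

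**Figure D3:**
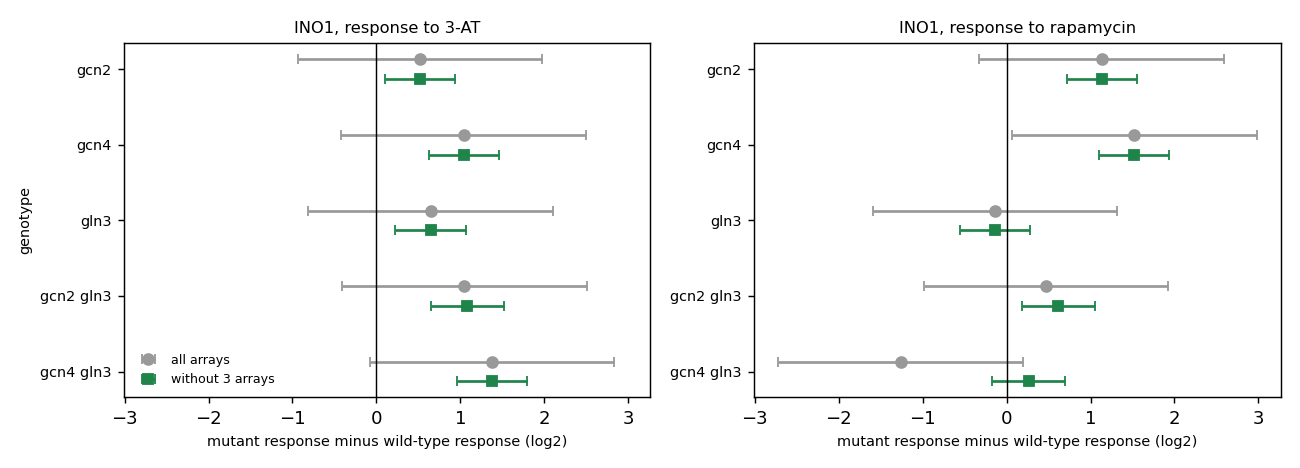
Difference of each mutant's INO1 response from the wild-type response, in log2 units, for 3-AT (left) and rapamycin (right), over 72 arrays (grey circles) and 69 arrays (green squares), with 95% intervals as bars and a line at 0. Over 72 arrays every interval except that of gcn4 with rapamycin crosses 0. Over 69 arrays intervals lie above 0 for all 5 mutants with 3-AT, from 0.52 in gcn2 to 1.38 in gcn4 gln3, and for gcn2 (1.13), gcn4 (1.52) and gcn2 gln3 (0.62) with rapamycin; intervals are not adjusted for the number of probe sets tested.

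CDS1 encodes CDP-diacylglycerol synthase, the enzyme at the head of the pathway, and its 3-AT values, which were known when it was picked, are described without a test. In wild type it read 146, 169, 227 and 181 with 3-AT, 634, 839, 604 and 468 with rapamycin and 804, 1343, 887 and 663 untreated. Over 23 arrays of all genotypes with 3-AT the signal was 146 to 341 (median 227), against 663 to 1343 (median 976) over the 24 untreated arrays. No 3-AT array of any genotype reached an untreated array of any genotype. The log2 change with 3-AT was -2.32 ± 0.21 in wild type, -2.11 ± 0.21 in gcn4, -2.04 ± 0.21 in gln3, -2.02 ± 0.21 in gcn4 gln3, -2.0 ± 0.22 in gcn2 gln3 and -1.74 ± 0.21 in gcn2. The wild-type value is a 5.00-fold lower signal, and the smallest, in gcn2, a 3.35-fold lower one. With rapamycin, which the choice of genes did not use, CDS1 fell by 0.52 ± 0.21 in wild type (adjusted p = 0.029 / 0.08), although treated and untreated ranges overlapped; over 72 arrays it was also called without rapamycin replicate 2 or untreated replicate 4 (adjusted p = 0.036 and 0.037). In the mutants the rapamycin change ran between -0.47 ± 0.21 in gln3 and 0.09 ± 0.21 in gcn2 over 69 arrays with no call on the deposited scale. In gln3 it was called over 69 arrays with centring (-0.73, adjusted p = 0.00086) and quantile normalization (-0.67, adjusted p = 0.0033), and over 72 arrays with both (adjusted p = 0.0059 and 0.014). In gcn4 it was called with centring of the 69 arrays (-0.53, adjusted p = 0.014). The call in gcn4 gln3 over 72 arrays (-0.64 ± 0.24, adjusted p = 0.027) was lost without rapamycin replicate 2 (-0.30, adjusted p = 0.32) or untreated replicate 2 or 3 (adjusted p = 0.084 and 0.065).

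PIS1, which encodes phosphatidylinositol synthase, had the smallest range across groups, 1.44-fold between its lowest and highest group means. With 3-AT it read 4686, 4613, 5345 and 4721 in wild type, against 5913, 6087, 5577 and 5840.2 untreated, ranges that did not overlap (change -0.28 ± 0.08, a description). It fell in all 5 mutants over 69 arrays, by 0.19 in gcn2 (adjusted p = 0.039 / 0.43) to 0.35 in gcn4 gln3 (adjusted p = 0.00017 / 0.12), each without overlap. Over 72 arrays only gcn2 gln3 was called (adjusted p = 0.024), and not without 3-AT replicate 1 (adjusted p = 0.20) or untreated replicate 3 (adjusted p = 0.057). With quantile normalization of the 69 arrays the calls in gcn2, gln3 and gcn2 gln3 were lost (adjusted p = 0.22, 0.2 and 0.057). With rapamycin PIS1 fell by 0.20 ± 0.08 in wild type (adjusted p = 0.028 / 0.42), a call lost with quantile normalization (adjusted p = 0.19), and no mutant was called on the deposited scale. The direction in gcn4 turned with the scaling of the 69 arrays, and both values were called: centring gave a lower PIS1 (-0.26, adjusted p = 0.017) and quantile normalization a higher one (0.20, adjusted p = 0.037). Quantile normalization also gave calls for PIS1 in gln3 (0.20, adjusted p = 0.038) and gcn4 gln3 (0.24, adjusted p = 0.026).

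CHO1 and PSD1 encode phosphatidylserine synthase and the mitochondrial phosphatidylserine decarboxylase, consecutive steps toward phosphatidylethanolamine. CHO1 read 1939, 2216, 1379 and 1506 in wild type with 3-AT, against 4134, 3111, 3059.8 and 2696 untreated, without overlap (change -0.89 ± 0.17, a description). Over 69 arrays it fell in 4 of 5 mutants, by 0.70 ± 0.17 in gcn2 (adjusted p = 0.00051 / 0.07), 0.56 ± 0.17 in gln3 (adjusted p = 0.0054 / 0.17), 0.49 ± 0.17 in gcn4 gln3 (adjusted p = 0.013 / 0.21) and 0.45 ± 0.17 in gcn4 (adjusted p = 0.019 / 0.24). None of the 4 was called over 72 arrays, and the ranges overlapped in gln3. In gcn2 gln3 the CHO1 change with 3-AT was -0.27 ± 0.19 (adjusted p = 0.22 / 0.2), and it was called with centring of the 69 arrays (-0.65, adjusted p = 0.0051). With rapamycin CHO1 had no call on the deposited scale. Its changes over 69 arrays ran between -0.01 in wild type and 0.44 in gcn2 gln3 (interval 0.07 to 0.81, adjusted p = 0.051 / 0.63). With the replicate number as a block, CHO1 was called over 69 arrays in gcn2 gln3, gcn4 gln3 and gcn4 (adjusted p = 0.018, 0.036 and 0.039). With quantile normalization of the 69 arrays it was called in gcn2 gln3 (0.47, adjusted p = 0.042) and gcn4 (0.42, adjusted p = 0.043). In gcn4 gln3 the 3 arrays turned the direction: the change was -0.33 ± 0.31 over 72 arrays and 0.41 ± 0.19 over 69, and leaving out rapamycin replicate 1 alone made the negative value a call (-0.74, adjusted p = 0.041).

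PSD1 read 1238, 1263, 1397 and 1467 in gln3 with 3-AT and 1426, 1621, 1268 and 1585 with rapamycin, against 1637, 3163, 2523 and 3266 untreated. Both treated groups lay below every untreated gln3 array. PSD1 fell there with 3-AT (-0.93 ± 0.25, adjusted p = 0.0017 / 0.022) and, over 69 arrays, with rapamycin (-0.80 ± 0.25, adjusted p = 0.0071 / 0.052). The 3-AT call over 72 arrays is lost without 3-AT replicate 1 or untreated replicate 2 or 4 (adjusted p = 0.051, 0.074 and 0.081), and the rapamycin change is called over 72 arrays without untreated replicate 1 (adjusted p = 0.022). Wild type with 3-AT read 1296, 1166, 755 and 1422, against 2242, 2204, 2066 and 1667 untreated, also without overlap (change -0.85 ± 0.25, a description). In gcn2 and gcn4 the 3-AT changes were 0.19 ± 0.25 (interval -0.32 to 0.70) and 0.00 ± 0.25 (interval -0.51 to 0.51), with overlapping ranges. The difference of the gcn2 response from wild type was 1.04 ± 0.36 (adjusted p = 0.057 / 0.36) and that of gcn4 0.85 ± 0.36 (adjusted p = 0.11 / 0.4), neither called on the deposited scale. In gcn2 quantile normalization of the 69 arrays gave a call (1.14, adjusted p = 0.024), as did the replicate number as a block (adjusted p = 0.03). In gcn4 gln3 with rapamycin PSD1 was called over 72 arrays only on leaving out rapamycin replicate 1 or 4 or untreated replicate 3 (adjusted p = 0.016, 0.018 and 0.038), all of which keep the array set apart.

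CHO2 and OPI3 encode the methyltransferases that make phosphatidylcholine from phosphatidylethanolamine, and over 69 arrays both rose with rapamycin in wild type, gcn2 and gcn4. OPI3 read 4553, 4364, 4975 and 4507 in wild type with 3-AT, 19747, 17752, 17704 and 19289 with rapamycin and 10896, 8108, 11189.6 and 10423 untreated. None of these 3 groups overlapped another. With rapamycin OPI3 rose by 0.88 ± 0.15 in wild type (adjusted p = 1.3e-06 / 0.19), and over 69 arrays it rose in 4 of 5 mutants, by 0.72 in gcn4 to 0.87 in gcn4 gln3 (adjusted p = 5.9e-05 and 1.3e-05). In gln3 the change was 0.31 ± 0.15 (adjusted p = 0.079 / 0.71), although its ranges did not overlap, and the difference of the gln3 response from wild type was -0.57 ± 0.21 (interval -1.0 to -0.15, adjusted p = 0.12 / 1). The OPI3 change in gln3 rests on the scaling: over 69 arrays it was called with quantile normalization (0.80, adjusted p = 4e-06) and near 0 with centring (0.05, adjusted p = 0.82). In gcn4 gln3 the 4 arrays with rapamycin read 18616, 314 (an array set apart), 15308 and 19642, against 7597 to 10969.7 untreated, and the 1 low array turned the change to -0.59 ± 0.53 over 72 arrays (adjusted p = 0.38); without it alone the change was 0.87 (adjusted p = 0.0087). With 3-AT OPI3 fell in all 5 mutants over 69 arrays without overlap, by 0.50 in gcn2 to 1.29 in gcn4 gln3 (adjusted p = 0.0037 and 1.4e-10). Over 72 arrays only gcn4 gln3 was called (adjusted p = 0.045), and that call was lost on leaving out untreated replicate 2, 3 or 4 or 3-AT replicate 1, 2 or 4 (adjusted p = 0.076 to 0.10), while gcn2 gln3 was called on leaving out 3-AT replicate 3 or 4 (adjusted p = 0.031 and 0.046). The wild-type change was -1.13 ± 0.15 (a description). In gcn2, where OPI3 read 7776, 7123, 9032 and 6721 with 3-AT, against 9814, 10712, 11679 and 11023 untreated, the response stood 0.63 ± 0.21 above that of wild type (adjusted p = 0.049 / 1), a call lost with median centring of the 69 arrays (adjusted p = 0.14).

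CHO2 read 3863, 4440.4, 4551 and 4989.6 in wild type with rapamycin, against 2611, 1801, 3166 and 2667 untreated. All treated arrays were higher, and CHO2 rose by 0.82 ± 0.14, 1.77-fold (adjusted p = 2.6e-06 / 0.0042). It rose in gcn4, which read 5559, 5487, 5246 and 6423 with rapamycin, against 3093, 3371, 3262 and 3927 untreated, by 0.74 ± 0.14 (adjusted p = 2.2e-05 / 0.012), and in gcn2 by 0.59 ± 0.14 (adjusted p = 0.00063 / 0.055). In the 3 strains without GLN3 the changes were 0.18 ± 0.14 (gln3), 0.35 ± 0.16 (gcn2 gln3) and 0.18 ± 0.16 (gcn4 gln3) over 69 arrays, with overlapping ranges and no call. The gcn2 gln3 rise was called with quantile normalization of 72 arrays (adjusted p = 0.035). With the replicate number as a block it was called over 72 and 69 arrays (adjusted p = 0.03 and 0.037). Mean signal with rapamycin was 3627, 4769 and 4471 in these strains, against 4461 in wild type. Untreated means were 3204, 3703 and 3948, against 2561 in wild type. The differences from the wild-type response were -0.64 ± 0.20 (interval -1.05 to -0.23, adjusted p = 0.057 / 0.72) in gln3, -0.47 ± 0.21 (interval -0.90 to -0.05, adjusted p = 0.2 / 0.99) in gcn2 gln3 and -0.65 ± 0.21 (interval -1.07 to -0.22, adjusted p = 0.051 / 0.06) in gcn4 gln3. None was called on the deposited scale. Over 69 arrays the gln3 difference was called with centring (-0.77, adjusted p = 0.016) and quantile normalization (-0.64, adjusted p = 0.047), and the gcn4 gln3 difference with centring (-0.65, adjusted p = 0.048). In gcn4 gln3 leaving out rapamycin replicate 1, 3 or 4 or wild-type untreated replicate 3 gave a call over 72 arrays (adjusted p = 0.032, 0.017, 0.017 and 0.040), and for CHO2 in gcn2 gln3 leaving out untreated replicate 1 or rapamycin replicate 2 made the rise a call (0.69 and 0.81, adjusted p = 0.039 and 0.011).

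With 3-AT, CHO2 fell in gln3 by 0.41 ± 0.14 (adjusted p = 0.015 / 0.19) and in gcn4 gln3 by 0.47 ± 0.14 (adjusted p = 0.004 / 0.1). In wild type it read 1736, 2008, 2279 and 1711, against 2611, 1801, 3166 and 2667 untreated, which overlap (change -0.39 ± 0.14, a description). In gcn2 it read 3547, 3191, 3411 and 3716 with 3-AT, against 2422, 2783, 3299 and 3272 untreated, and in gcn4 3239, 3915, 4275 and 4878, against 3093, 3371, 3262 and 3927 untreated. Both overlap, with changes of 0.24 ± 0.14 (interval -0.04 to 0.53) and 0.25 ± 0.14 (interval -0.04 to 0.54) and no call on the deposited scale. In gcn4 quantile normalization of the 69 arrays gave a call (0.33, adjusted p = 0.041), and centring turned the direction (-0.16, adjusted p = 0.34). The response stood above that of wild type by 0.63 ± 0.20 in gcn2 (adjusted p = 0.039 / 0.57) and 0.63 ± 0.20 in gcn4 (adjusted p = 0.026 / 0.39). Both calls were lost with median centring of the 69 arrays (adjusted p = 0.094 and 0.1).

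**Figure D4:**
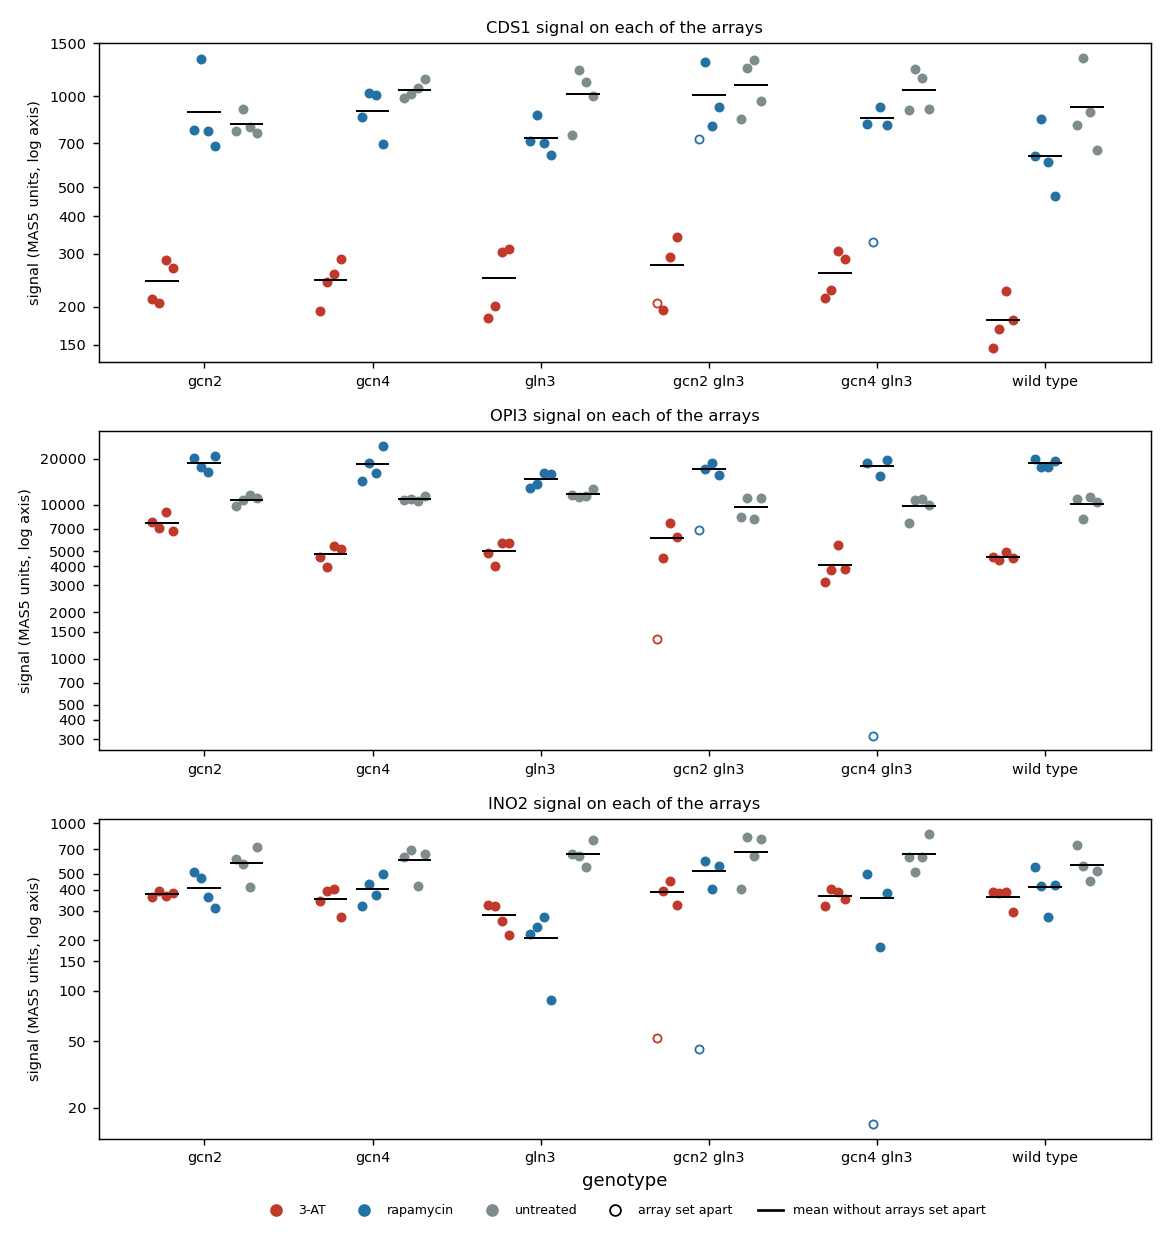
Signal of CDS1, OPI3 and INO2 on every array (log axes), by genotype with wild type last and by treatment (3-AT, rapamycin, untreated). Points are arrays, open circles the 3 arrays set apart, black lines means without them. CDS1 with 3-AT (146 to 341) lies below every untreated array, OPI3 with rapamycin (12970.2 to 24196 without the open circles) above every untreated one, and INO2 with rapamycin has its lowest mean in gln3.

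INO2 and INO4 encode the paired activators of inositol-responsive genes. INO2 read 326, 322, 262 and 216 in gln3 with 3-AT and 219, 240.1, 275 and 88.6 with rapamycin, against 658, 640.4, 549 and 789 untreated. Neither treated group overlapped the untreated arrays. INO2 fell there with rapamycin (-1.79 ± 0.25, adjusted p = 3.7e-08 / 0.011) and, over 69 arrays, with 3-AT (-1.24 ± 0.25, adjusted p = 4.9e-05 / 0.088); the rapamycin call over 72 arrays was lost without rapamycin replicate 4 (-1.42, adjusted p = 0.065). Wild type read 390.5, 383, 389.7 and 296 with 3-AT and 549, 423, 275 and 425 with rapamycin, against 739, 558, 454 and 516 untreated. The 3-AT arrays lay below the untreated ones (change -0.62 ± 0.25, a description) and the rapamycin arrays overlapped them (change -0.46 ± 0.25, interval -0.96 to 0.05). The gln3 response to rapamycin stood at -1.33 ± 0.36 relative to that of wild type (adjusted p = 0.018 / 0.84). Over 69 arrays INO2 fell with 3-AT in all 5 mutants, by 0.59 in gcn2 (adjusted p = 0.041 / 0.42) to 1.24 in gln3, and in gcn2 gln3 the ranges overlapped. The 72-array call in gcn2 gln3 (-1.46 ± 0.56, adjusted p = 0.033) was lost without 3-AT replicate 1 (-0.73, adjusted p = 0.32) or untreated replicate 2, 3 or 4 (adjusted p = 0.084, 0.054 and 0.081). With rapamycin INO2 also fell in gcn4 gln3, which read 499, 16.0 (an array set apart), 183 and 385 with rapamycin, against 632, 513, 625 and 863 untreated, by 0.98 ± 0.27 over 69 arrays (adjusted p = 0.0025 / 0.0025), although leaving out replicate 2 alone gave adjusted p = 0.10. In gcn4 and gcn2 the INO2 changes with rapamycin were -0.56 ± 0.25 (adjusted p = 0.059 / 0.47) and -0.49 ± 0.25 (adjusted p = 0.11 / 0.56), and both were called over 69 arrays with centring (adjusted p = 0.008 and 0.04) and quantile normalization (adjusted p = 0.0096 and 0.042). In gcn2 gln3 the rapamycin change was called over 72 arrays only without rapamycin replicate 2 or 4 (adjusted p = 0.043 and 0.049), which keeps the array set apart.

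INO4 rose with rapamycin in gcn4, gcn2 and wild type. It read 861, 615, 487 and 564 in gcn4, against 314, 227, 292 and 295 untreated, and 435, 453, 357 and 565 in wild type, against 270.2, 189, 259.5 and 327 untreated. In both genotypes every treated array was above every untreated one. INO4 rose by 1.14 ± 0.20 in gcn4 (adjusted p = 3.4e-06 / 0.00038), by 0.77 ± 0.20 in gcn2 (adjusted p = 0.0013 / 0.019) and by 0.80 ± 0.20 in wild type (adjusted p = 0.00065 / 0.011). At 72 arrays the wild-type call was lost without untreated replicate 2 or rapamycin replicate 4 (adjusted p = 0.065 and 0.051), and the gcn2 call without rapamycin replicate 1 or 4 or untreated replicate 2 (adjusted p = 0.063, 0.057 and 0.059). The changes in the strains without GLN3 were 0.45 ± 0.20 (gln3), 0.10 ± 0.22 (gcn2 gln3) and 0.30 ± 0.22 (gcn4 gln3), none called over 69 or 72 arrays on the deposited scale. Leaving out rapamycin replicate 3 gave a call in gcn2 gln3 (0.85, adjusted p = 0.0095). The replicate number as a block gave a call in gln3 over 69 arrays (adjusted p = 0.032). In these strains the differences from the wild-type response were -0.35 ± 0.28 (interval -0.92 to 0.22), -0.70 ± 0.30 (interval -1.29 to -0.10) and -0.50 ± 0.30 (interval -1.09 to 0.10), also not called. With 3-AT INO4 had no call in any mutant on the deposited scale, with changes between -0.10 ± 0.20 in gln3 and 0.34 ± 0.20 in gcn2 over 69 arrays. In gcn2 gln3 it was called over 72 arrays without untreated replicate 1 or 3-AT replicate 4 (adjusted p = 0.036 and 0.047). The replicate number as a block also gave a call there over 72 arrays (adjusted p = 0.043).

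OPI1, the gene of the repressor, spanned 726 to 1609 over 69 arrays. It read 876, 782, 755 and 726 in gln3 with 3-AT, against 1489, 1142, 934 and 785 untreated, and fell by 0.43 ± 0.17 (adjusted p = 0.027 / 0.086), although the ranges overlap. Over 72 arrays that change is called without untreated replicate 4 (-0.58, adjusted p = 0.032). Wild type with 3-AT read 998, 968, 773 and 778, against 1329, 1299.6, 991 and 1109.6 untreated (change -0.43 ± 0.17, a description), and in gcn2 and gcn4 the changes were 0.22 ± 0.17 and 0.22 ± 0.17, not called. The differences from the wild-type 3-AT response in gcn2 and gcn4 were 0.65 ± 0.24 (adjusted p = 0.076 / 0.32) and 0.65 ± 0.24 (adjusted p = 0.054 / 0.21), neither called. Both were called over 69 arrays with the replicate number as a block (adjusted p = 0.0022 and 0.0015). With rapamycin the 1 call on the deposited scale, in gcn4 gln3 over 72 arrays (-0.66 ± 0.20, adjusted p = 0.0052), was lost over 69 arrays (-0.37 ± 0.18, adjusted p = 0.085) and without rapamycin replicate 2 alone (adjusted p = 0.096). Over 69 arrays it was called with centring (-0.51, adjusted p = 0.041) and quantile normalization (-0.48, adjusted p = 0.044), as was OPI1 in gln3 with centring (-0.48, adjusted p = 0.038). With the replicate number as a block, OPI1 was called over 69 arrays in gcn4 gln3 and in wild type (adjusted p = 0.014 and 0.034).

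**Figure D5:**
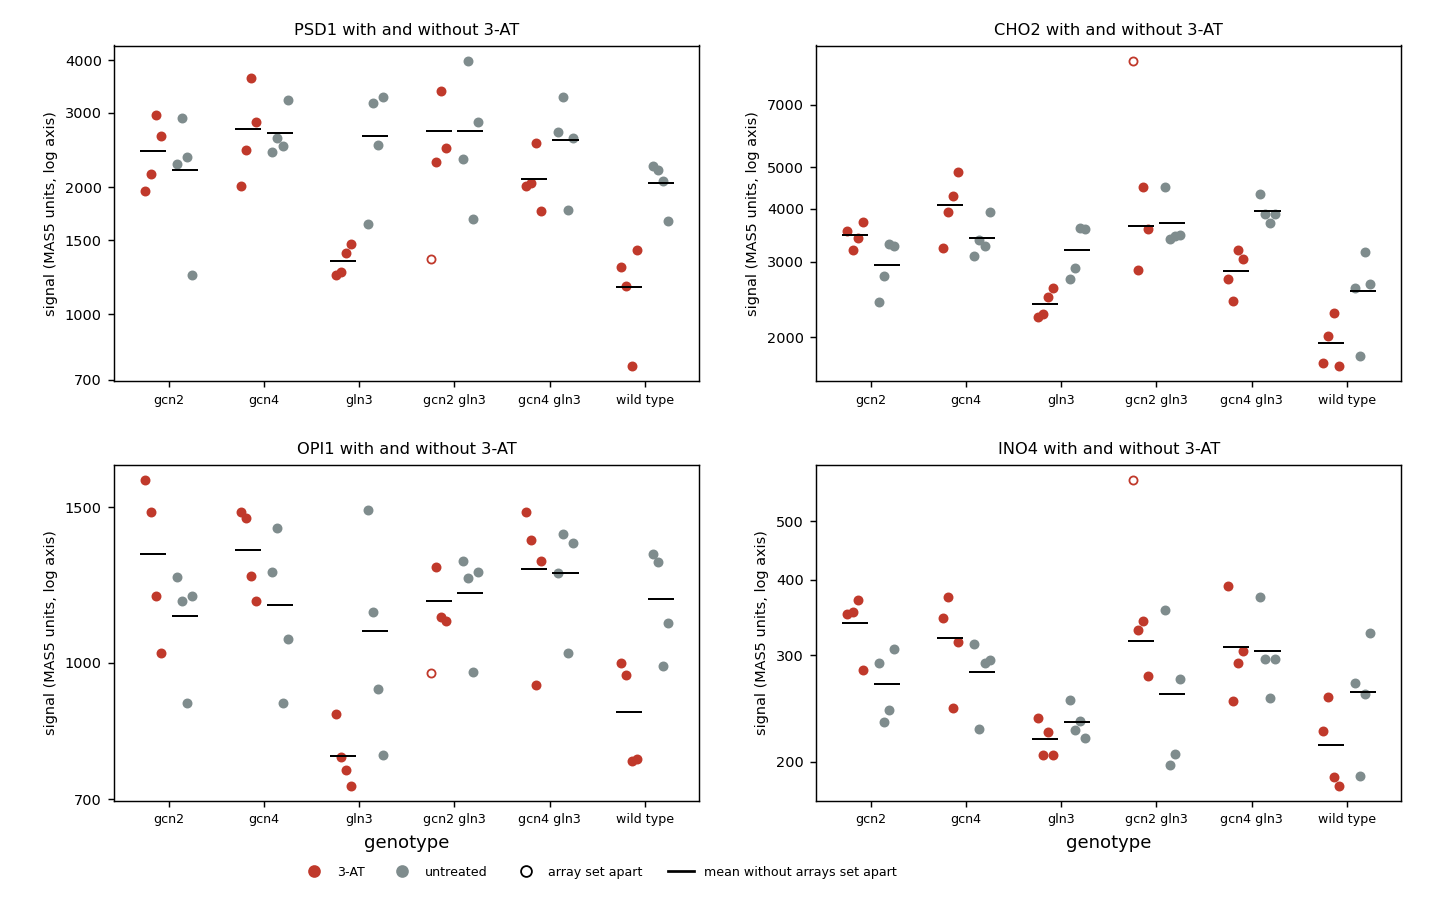
Signal of PSD1, CHO2, OPI1 and INO4 on arrays with 3-AT and untreated arrays, by genotype with wild type last. Points are arrays, open circles arrays set apart, black lines means without them. In gln3, PSD1 with 3-AT (1238 to 1467) lies below the untreated arrays (1637 to 3266), while in gcn2 (1961 to 2965 against 1242 to 2925) the groups overlap.

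Between untreated mutants and wild type the only calls on the deposited scale were for CHO2, in both double mutants over 69 arrays. With centring of the 69 arrays CHO2 was also called in gcn4 (0.48, adjusted p = 0.043). The replicate number as a block over 69 arrays added calls for CHO2 in gcn4 (adjusted p = 0.018) and PIS1 in gcn2 gln3 (adjusted p = 0.047). CHO2 read 4488, 3396, 3456 and 3472 in untreated gcn2 gln3 and 4329, 3883, 3692 and 3889.6 in untreated gcn4 gln3, against 2611, 1801, 3166 and 2667 in untreated wild type. All 8 mutant arrays were higher than all 4 wild-type ones. The change was 0.65 ± 0.14 in gcn4 gln3 (adjusted p = 0.0024 / 0.26) and 0.55 ± 0.14 in gcn2 gln3 (adjusted p = 0.014 / 0.55). These were 2 of 50 pairs of a gene and an untreated mutant called over 69 arrays, where 0.952% of all pairs were called higher and 3.00% in either direction. Limma called 0 of 50 over 72 arrays (0.938% of all pairs), 2 of them at an unadjusted p under 0.05. For INO1 the untreated differences from wild type ran between -0.36 ± 0.15 in gcn4 gln3 (interval -0.66 to -0.06) and 0.34 ± 0.15 in gln3 (interval 0.04 to 0.64). Both were called over 69 arrays with the replicate number as a block (adjusted p = 0.025 and 0.047).

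Set directly against each other in wild type, 4 to 6 of 9 genes were lower with 3-AT than with rapamycin. The wild-type 3-AT arrays were in view when the genes were picked. The p-values and counts of this comparison are therefore no independent evidence. Over 72 arrays OPI3 (-2.02 ± 0.53, adjusted p = 0.0019), CHO2 (-1.21 ± 0.24, 4e-05), INO4 (-1.08 ± 0.26, 0.00069) and CHO1 (-0.88 ± 0.31, 0.022) were called lower with 3-AT than with rapamycin. INO1 (-1.15 ± 0.15, adjusted p = 2.4e-09 / 0.076) and PSD1 (-0.63 ± 0.25, adjusted p = 0.032 / 0.13) joined them over 69 arrays. That is 4 of 9 genes lower over 72 arrays, where 15.8% of probe sets were lower and 35.6% were called. Over 69 arrays it is 6 of 9, where 24.3% were lower and 51.8% were called, with CDS1 left out. The CHO1 call over 72 arrays was lost without rapamycin replicate 1 or 2 or 3-AT replicate 3 or 4 (adjusted p = 0.092, 0.057, 0.072 and 0.060), and PSD1 was called over 72 arrays without rapamycin replicate 3 (adjusted p = 0.040). INO2 (-0.16 ± 0.25) and PIS1 (-0.08 ± 0.08) had no call, and neither did OPI1 (-0.16 ± 0.17).

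The surrounding pathway was read from 7 lists of other genes, each with its own probe set, as pairs of a gene and a mutant. The medians are of log2 change over 69 arrays, beside 0.17 with 3-AT and 0.15 with rapamycin over all probe sets, and the shares of all pairs called are those given for the 5 mutants above. Of 7 other genes tied to inositol and choline control (PSD2, FAS1, FAS2, ACC1, URA7, URA8 and ACS2), 3-AT had 5 of 35 pairs higher and 23 lower over 69 arrays, 5 and 21 over 72, and a median of -0.91. URA7, the gene of the CTP synthase whose product Cds1 uses, fell in all 5 mutants with 3-AT (-1.55 to -1.31) and with rapamycin (-2.79 to -2.23) in both fits. In wild type URA7 fell with rapamycin (-3.37 ± 0.32, adjusted p = 3e-13 / 5.1e-13). The fatty acid synthase gene FAS1 (-1.33 to -0.97) and the acetyl-CoA carboxylase gene ACC1 (-1.20 to -0.76) fell with 3-AT in all 5 mutants, whereas PSD2, the other phosphatidylserine decarboxylase, rose in all 5 (0.92 to 1.40). These calls held over 69 and 72 arrays. With rapamycin the same list had 17 of 35 pairs higher and 5 lower over 69 arrays, 5 and 6 over 72, and a median of 0.37. Of 5 genes of inositol and choline uptake and inositol release, 3-AT had 5 of 25 pairs higher and 16 lower over 69 arrays, 4 and 12 over 72, and a median of -0.48. The inositol transporter gene ITR1 fell in all 5 mutants over 69 arrays (-1.56 to -0.52) and in 4 over 72, and GIT1, the glycerophosphoinositol permease, rose in 5 over 69 arrays (0.65 to 1.17) and in 4 over 72. Of 14 calls for GIT1 over all comparisons with the 69 arrays, 8 were lost under quantile normalization and 3 under median centring. Among 8 regulators of the inositol response the counts with 3-AT were 7 of 40 pairs higher and 6 lower over 69 arrays, 7 and 5 over 72, and a median of 0.04. SCS2, whose product holds Opi1 at the endoplasmic reticulum, fell in all 5 over 69 arrays (-1.26 to -0.62) and in 4 over 72.

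The Kennedy pathway makes phosphatidylcholine and phosphatidylethanolamine from free choline and ethanolamine. Its 6 genes had 16 of 30 pairs higher and 0 lower over 69 arrays, 11 and 0 over 72, and a median of 0.33 with rapamycin, and CKI1, the choline kinase, rose in all 5 mutants in both fits (0.68 to 1.24). With 3-AT they had 10 of 30 pairs higher and 9 lower over 69 arrays, 9 and 6 over 72, and a median of 0.10. Of all pairs over 69 arrays, 35.1% were higher and 20.7% lower with 3-AT, and 29.7% and 17.3% with rapamycin. Part of the list calls rests on the scaling. Over all comparisons with the 69 arrays, median centring lost 5 of 5 calls for ECT1, 4 of 5 for EKI1 and 4 of 6 for PCT1. It lost 3 of 11 for CPT1, 2 of 8 for EPT1 and 0 of 11 for CKI1. CPT1, the cholinephosphotransferase that completes phosphatidylcholine, read 4545 to 5692 in wild type with 3-AT, against 2048 to 2763 untreated, and 4696 to 5239 in gln3, against 2348 to 2941 untreated. In gcn2 it read 2340.1 to 2732 with 3-AT, against 2165 to 2675 untreated. Wild type and gln3 were thus without overlap between treated and untreated arrays, and gcn2 overlapped. The CPT1 response stood below that of wild type in gcn2 (-1.01 ± 0.16, adjusted p = 4e-06 / 0.00027), gcn4 (-0.91 ± 0.16, adjusted p = 2.7e-05 / 0.0012), gcn2 gln3 (-1.37 ± 0.17, adjusted p = 7.9e-09 / 6.3e-06) and gcn4 gln3 (-1.38 ± 0.16, adjusted p = 1.5e-09 / 4.2e-07). In gln3 the difference was -0.13 ± 0.16 (interval -0.45 to 0.20), not called. All genes named singly from the lists, above and below, CPT1, CLD1 and NEM1 among them, were singled out after their values were seen.

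In the cardiolipin branch, 6 genes had 17 of 30 pairs higher and 0 lower over 69 arrays, 10 and 0 over 72, and a median of 0.52 with rapamycin. With 3-AT they had 11 of 30 pairs higher and 10 lower over 69 arrays, 6 and 6 over 72, and a median of 0.18. For this list and those that follow, the shares of all pairs over 69 arrays are 35.1% higher and 20.7% lower with 3-AT. With rapamycin they are 29.7% higher and 17.3% lower. Over all comparisons with the 69 arrays, median centring lost 4 of 4 calls for TAM41 and 3 of 3 for PGS1. It lost 1 of 11 for CRD1, 1 of 8 for TAZ1, 1 of 13 for CLD1 and 0 of 12 for GEP4. CRD1, cardiolipin synthase, rose in all 5 mutants with 3-AT in both fits (1.16 to 1.78). GEP4 of the same list fell with 3-AT in all 5 over 69 arrays (-1.18 to -0.53) and in 3 over 72. With rapamycin GEP4 rose in all 5 in both fits (0.67 to 1.51). CRD1 also rose with rapamycin, in 5 over 69 arrays (0.50 to 0.99) and in 3 over 72. CLD1, the cardiolipin phospholipase, read 406 to 531 in wild type with 3-AT, against 175 to 299 untreated, and in gcn2 103 to 155 with 3-AT, against 239 to 320.2 untreated. Neither pair of groups overlapped, and the direction was opposite. CLD1 was above background on 3 of the 4 gcn2 arrays with 3-AT. Its response differed from wild type by -2.06 ± 0.27 in gcn2 (adjusted p = 4.1e-08 / 1.9e-05), -1.47 ± 0.27 in gcn4 (adjusted p = 5.2e-05 / 0.0033), -1.98 ± 0.29 in gcn2 gln3 (adjusted p = 3.3e-07 / 0.00032) and -1.84 ± 0.27 in gcn4 gln3 (adjusted p = 5.9e-07 / 0.00012); in gln3 it was 0.11 ± 0.27 (interval -0.43 to 0.66), not called. Phosphatidic acid synthesis and turnover was covered by 12 genes, which gave 27 of 60 pairs higher and 8 lower over 69 arrays, 21 and 4 over 72, and a median of 0.35 with 3-AT and 24 of 60 pairs higher and 2 lower over 69 arrays, 13 and 3 over 72, and a median of 0.41 with rapamycin. SCT1, a glycerol phosphate acyltransferase, rose with 3-AT in 4 of 5 mutants over 69 arrays and 3 over 72 (changes of 0.51 to 1.69 over the 5). SLC1, a lysophosphatidic acid acyltransferase, fell in all 5 over 69 arrays and 2 over 72 (-0.65 to -0.41). In this list, over all comparisons with the 69 arrays, median centring lost 6 of 8 calls each for AYR1 and SPO7 and 6 of 9 for APP1. It lost none for SCT1, GPT2, SLC1 and LPP1. NEM1, whose product activates the phosphatidic acid phosphatase Pah1, had a 3-AT response above that of wild type in gcn2 (1.31 ± 0.37, adjusted p = 0.013 / 0.058), gcn4 (1.21 ± 0.37, adjusted p = 0.016 / 0.065) and gcn4 gln3 (1.36 ± 0.37, adjusted p = 0.0058 / 0.028). The 10 genes of phosphoinositide kinases and sphingolipid inositol transfer had 5 of 50 pairs higher and 12 lower over 69 arrays, 6 and 6 over 72, and a median of -0.07 with 3-AT and 11 of 50 pairs higher and 5 lower over 69 arrays, 9 and 4 over 72, and a median of -0.01 with rapamycin, and FAB1, the phosphatidylinositol phosphate kinase of the vacuole, rose in all 5 mutants with rapamycin in both fits (0.85 to 1.08). The regulators had 6 of 40 pairs higher and 1 lower over 69 arrays, 2 and 4 over 72, and a median of 0.04 with rapamycin and the uptake genes 6 of 25 pairs higher and 2 lower over 69 arrays, 5 and 2 over 72, and a median of 0.08.

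Likeness of pattern was described by Pearson's r between the 18 group means of log2 signal of a gene and those of 5408 other named genes, with no p, since all genes share the same arrays; r is given over all arrays and then without the 3 arrays. Most like INO1 were SED4 (0.89, 0.82), ERG1 (0.85, 0.75), MVD1 (0.85, 0.75), ERG13 (0.84, 0.68) and PFY1 (0.84, 0.72). Most like CDS1 were MRPL6 (0.98, 0.99), ATP11 (0.98, 0.98), MRX14 (0.98, 0.97), TOM6 (0.97, 0.97) and CSR1 (0.97, 0.97). For OPI3 they were PAR32 (0.96, 0.96), PEP4 (0.96, 0.96), CAB4 (0.95, 0.95), CAP2 (0.95, 0.96) and RNQ1 (0.95, 0.93), and for CHO1 MIA40 (0.94, 0.89), SNF4 (0.94, 0.91), YHB1 (0.92, 0.86), VTA1 (0.91, 0.78) and YGR111W (0.91, 0.88). Each of the 5 INO1 values is lower without the 3 arrays, and GOS1 then came first for INO1, with r of 0.85. For CDS1, MRPL6 came first both ways. The genes named were ranked over all arrays, and several ranks fell without the 3 arrays. For INO1, ERG1 then stood at rank 20, PFY1 at 41 and ERG13 at 97. RNQ1 stood at 53 for OPI3, and YHB1 at 53 and VTA1 at 230 for CHO1. Without the 3 arrays PEP4 came first for OPI3 and MVD1 for CHO1 (r of 0.92).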

How the data were processed

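Total RNA from 72 samples of yeast (5 ug per labelling, per the labels' protocols) was read on Affymetrix arrays. The unit is the deposited intensity of 9335 probe sets per array, a linear signal. Per the submitters' processing notes the authors used GCOS and MAS5, with versions not given in the sources used here. The deposited signal has a 2% trimmed mean of 1001 on every array to the nearest whole number, so arrays were scaled to a common mean. No genome build is named and no promoter or protein sequence was analysed here. Control probe sets (60) were dropped. Of the remainder, 6504 had 1 gene, 328 several and 2443 none in the platform annotation. A gene's probe set with the highest mean was kept. Signals were raised to 16.5, the 10th percentile, and taken to log2. Background is the 30th percentile of an array, 66.0 to 122 on the 69 arrays, and probe sets above it on at least 4 arrays were tested. All 18 group means were fitted in limma 3.58.1 (R 4.3.3, data.table version 1.17.8) with 54 residual degrees of freedom, 28 contrasts, and Benjamini-Hochberg adjustment within each. The fit was tested on simulated data. Figures used Python 3.11.15, numpy 2.4.6, pandas 2.3.3 and matplotlib 3.10.9. The number of arrays limits precision. The members and lists were chosen with earlier results of these data known. Differences from the wild-type 3-AT response, and the wild-type comparison of 3-AT with rapamycin, use wild-type arrays that were in view at that choice. They are no independent evidence. Named genes are the 10 members, the deleted genes, any list gene, and the 5 genes most like INO1, CDS1, OPI3 and CHO1. Alternatives covered scaling, floor, filter, arrays in the fit, array weights, probe set averaging, the replicate number as a block and leaving out each array.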

Additional observations from a re-analysis of the deposited data

Results flagged for a closer look

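In 15 of 180 groups of 4 arrays, 1 array lay far from the other 3, by the ratio of its gap to the group's range (Dixon's test at the 95% level; chance alone gives about 1 group in 20). In gcn2 gln3 with rapamycin, replicate 1, set apart by its actin ratio, was the array concerned for INO1 (1286, the others 1866 to 1955, ratio 0.889) and INO2 (44.9, the others 406 to 592, ratio 0.853). In gcn4 gln3 with rapamycin, replicate 2, set apart by its actin ratio, was the array concerned for INO1 (15.8, the others 1016 to 1224, ratio 0.957), CHO2 (1464, the others 3944 to 4789.5, ratio 0.836), OPI3 (314, the others 15308 to 19642, ratio 0.94), CDS1 (329, the others 806 to 922, ratio 0.87) and PIS1 (2172, the others 6693 to 7129, ratio 0.947). In gcn2 gln3 with 3-AT, replicate 1, set apart by its actin ratio, was the array concerned for PIS1 (3199, the others 5328 to 5600.3, ratio 0.911) and INO2 (52.3, the others 325 to 454, ratio 0.845). Arrays not set apart were concerned for CHO2 in untreated gcn2 gln3 (replicate 1, 4488, the others 3396 to 3472, ratio 0.92), OPI3 in untreated gln3 (replicate 4, 12761, the others 11303 to 11527, ratio 0.838), PIS1 in wild type with 3-AT (replicate 3, 5345, the others 4613 to 4721, ratio 0.843). The same held for INO2 in wild type with 3-AT (replicate 4, 296, the others 383 to 390.5, ratio 0.926), INO4 in gln3 with rapamycin (replicate 1, 460.3, the others 273 to 291, ratio 0.877) and OPI1 in untreated gcn2 gln3 (replicate 3, 977, the others 1248 to 1304, ratio 0.847).

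A mutant's response differed from the wild-type response over 69 arrays, and not over 72, in 9 cases. Adjusted p-values from limma are given over 69 arrays before the stroke and over 72 after it. For INO1 and 3-AT the difference was 1.04 in gcn4 (adjusted p = 0.00017 / 0.6), 1.08 in gcn2 gln3 (adjusted p = 0.00021 / 0.55) and 1.38 in gcn4 gln3 (adjusted p = 8.6e-07 / 0.38). For CHO2 and 3-AT the difference was 0.63 in gcn2 (adjusted p = 0.039 / 0.57) and 0.63 in gcn4 (adjusted p = 0.026 / 0.39). For OPI3 and 3-AT the difference was 0.63 in gcn2 (adjusted p = 0.049 / 1). For INO1 and rapamycin the difference was 1.13 in gcn2 (adjusted p = 0.00017 / 1) and 1.52 in gcn4 (adjusted p = 3.7e-07 / 0.69). For INO2 and rapamycin the difference was -1.33 in gln3 (adjusted p = 0.018 / 0.84).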

How the results depend on the processing

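Over 72 arrays, the counts of called genes or pairs were 2 for rapamycin in wild type, 9 for rapamycin in the mutants, 4 for 3-AT in the mutants, and 0 for differences from the wild-type responses and for untreated mutants. Without the 3 arrays the counts for rapamycin were 5 in wild type and 14 in the mutants, with 25 for 3-AT, 3 and 6 for differences in the rapamycin and 3-AT responses, and 2 for untreated mutants. Array weights gave 4, 18, 26, 4, 8 and 2 in the same order. Without the 3 arrays, and chosen after seeing the data, median centring gave 5, 22, 30, 6, 3 and 3, quantile normalization 4, 25, 24, 5, 9 and 2, and the replicate number as a block 6, 24, 25, 9, 14 and 6. Median centring of 72 arrays gave 20 for 3-AT, with 10 for rapamycin in the mutants. Fits on only the arrays compared gave 19 for 3-AT, and 2 and 4 for differences in the rapamycin and 3-AT responses. Probe sets above background on all 72 arrays gave 1 difference in the rapamycin response. The replicate block over 72 arrays gave 12 for rapamycin in the mutants, 6 for 3-AT and 1 difference in the rapamycin response, CHO2 in gcn4 gln3 (adjusted p = 0.027). Without the 3 arrays the calls gained with the block included the differences in rapamycin response of CHO2 in gcn4 gln3 and gln3 (adjusted p = 0.0059 and 0.0096) and of INO1 in gcn2 gln3 (adjusted p = 0.0074). They also included the rapamycin changes of CDS1, INO1 and OPI3 in gln3 (adjusted p = 0.027, 0.049 and 0.049) and of OPI1 in gcn4 gln3 (adjusted p = 0.014). Gained differences in 3-AT response were OPI1 in gcn2, gcn4, gcn2 gln3 and gcn4 gln3 (adjusted p = 0.0022, 0.0015, 0.038 and 0.04). INO1 in gcn2 and gln3 (adjusted p = 0.016 and 0.011), PSD1 in gcn2 (0.03) and CHO1 in gcn2 gln3 (0.041) were gained too. The correlation of the deviations of same-numbered arrays ran between -0.23 and 0.71 (median 0.27). Of 72 same-numbered pairs 58 were over 0.1, and all 4 pairs were over 0.1 in 9 of 18 contrasts. For replicate 3 it was 0.19 to 0.58. Same-numbered arrays thus deviated together in part. The numbers were not used as pairs outside the block fits, and several results given as not called are called with the block. Leaving out 1 array gave 1 to 4 for rapamycin in wild type, 8 to 13 for rapamycin in the mutants, 2 to 19 for 3-AT, 0 to 2 and 0 to 3 for differences in the rapamycin and 3-AT responses, 0 to 0 for untreated mutants, and 3 to 6 for 3-AT against rapamycin in wild type. Except for untreated mutants, each highest count is reached without gcn4 gln3 with rapamycin replicate 2, for rapamycin in the mutants also without 2 other arrays. Directions turned for INO1 with rapamycin in gcn4 gln3: 0.15 without the 3 arrays, 0.13 with array weights, and 0.013, 0.058 and 0.12 with centring, quantile normalization and the block without the 3 arrays. Leaving out 1 array gave -1.92 to 0.15. For OPI3 there the values were 0.87, 0.89, 0.73, 1.13 and 0.84, and -1.12 to 0.87 on leaving out 1 array. Without the 3 arrays the direction also turned for CHO1 there (0.43, block), CHO2 with 3-AT in gcn2 gln3 (-0.42, centring), PIS1 with rapamycin in gcn4 (-0.26, centring) and gcn4 gln3 (0.24, quantile), and the PIS1 difference in rapamycin response in gcn4 gln3 (0.33, block). The cause was not tested. Of 259 single results, halving the floor moved none past the threshold, doubling it 1, dropping the filter 1 and averaging probe sets none. INO2 was above background on 69 arrays and INO1 on 71, the other 8 genes on all 72.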
